A study of Homo sapiens with 20 samples.

Results

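The plastins are a family of actin-bundling proteins with 3 genes in the human genome, LCP1, PLS1 and PLS3. They were taken by symbol from 57087 genes, to which the transcripts of the 14 abundance files were summed, and they hold 28 of the 217082 transcripts listed there. The family was selected on the LCP1 RNA level, which was among the most increased after knockdown of Dicer and Ago2 in these samples, and the other members came with it. LCP1's own rises in those comparisons are therefore given as a description, with no test, while PLS1 and PLS3 were tested throughout. The RNA came from lines of the HEK293 lineage, human embryonic kidney cells, which the labels name HEK293T, HEK293 2B and HEK293. In mRNA-seq, wild type (wt) HEK293T cells and HEK293 2B cells carrying shRNA against DICER1 (shDicer) were each given 3 µg/ml doxycycline for 7 days, with 3 samples per group. In chromatin-associated RNA-seq (chrRNA-seq), 2 samples per group came from wt cells (labelled HEK293, while the methods give HEK293T as the wild type), from inducible shDicer and shAgo2 lines kept for 72 h in 3 µg/ml doxycycline, and from cells transfected with a plasmid for shRNA against DROSHA (shDrosha). The chromatin wt and shDrosha labels state no doxycycline, and none of the 14 libraries is a scrambled shRNA control. The inducible shDicer and shAgo2 lines are recombinant lines with an integrated cassette, so line and shRNA cannot be told apart in the comparisons with wt. Doxycycline was given to both groups in mRNA-seq, while on chromatin it too cannot be told apart from the shRNA if wt had none.

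Plastins cross-link actin filaments into tight parallel bundles. Each is a single chain with a calcium-binding EF-hand region at its start and a pair of actin-binding domains made of calponin-homology repeats. LCP1 (L-plastin) is the form of leukocytes and is also found in many tumour cells. PLS1 (I-plastin, or fimbrin) sits in the microvilli of intestinal and kidney epithelium and in hair-cell stereocilia, and PLS3 (T-plastin) is the form of most solid tissues.

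LCP1 (ENSG00000136167) lies on the minus strand of chromosome 13 from 46125920 to 46211871 in GRCh38. PLS1 (ENSG00000120756) lies on the plus strand of chromosome 3 from 142596393 to 142713664, and PLS3 (ENSG00000102024) on the plus strand of chromosome X from 115561174 to 115650861. LCP1 transcripts begin at a distal start, used by LCP1-202 and LCP1-204, or further in at a proximal start, used by LCP1-201 and LCP1-205. The 250 bases before the proximal LCP1 start are shown because most of the added LCP1 counts were assigned to it, with those before the first starts of PLS1 and PLS3 beside them for comparison. All are written 5′ to 3′ on the strand of the gene, with CpG dinucleotides in capitals. The LCP1 proximal window is chr13:46182178-46182427 (minus strand), that of PLS1 chr3:142596143-142596392 (plus strand) and that of PLS3 chrX:115560924-115561173 (plus strand). The letters were read from the RefSeq promoter table (GRCh38.p14).
LCP1 proximal start: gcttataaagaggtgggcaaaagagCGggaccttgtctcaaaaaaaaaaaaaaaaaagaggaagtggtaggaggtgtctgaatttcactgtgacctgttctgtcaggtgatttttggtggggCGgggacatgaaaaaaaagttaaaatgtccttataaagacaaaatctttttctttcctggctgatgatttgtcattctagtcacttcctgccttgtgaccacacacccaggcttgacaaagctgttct
PLS1 first start: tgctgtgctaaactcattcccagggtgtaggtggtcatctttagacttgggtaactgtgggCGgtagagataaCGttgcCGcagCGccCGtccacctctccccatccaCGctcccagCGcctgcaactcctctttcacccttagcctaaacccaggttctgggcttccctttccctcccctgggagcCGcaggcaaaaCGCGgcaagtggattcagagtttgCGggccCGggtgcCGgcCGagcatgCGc
PLS3 first start: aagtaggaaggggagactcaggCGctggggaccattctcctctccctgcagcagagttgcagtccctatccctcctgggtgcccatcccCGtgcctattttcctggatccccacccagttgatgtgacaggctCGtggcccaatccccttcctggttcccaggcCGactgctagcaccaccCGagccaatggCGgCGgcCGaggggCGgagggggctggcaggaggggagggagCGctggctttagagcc

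Upstream of the proximal LCP1 start there were 2 CpG dinucleotides, against 15 at PLS1 and 10 at PLS3. The median over 35114 RefSeq promoter windows of 250 bases was 11, and 14.7% of these windows had fewer than the proximal LCP1 window. The letters TATAAA occurred 2 times in the proximal LCP1 window on the sense strand, starting 247 and 97 bases before the start, and on neither strand of the PLS1 and PLS3 windows. Of all windows, 10.7% held TATAAA on either strand. GGAAGT, the core of many ETS-family sites, occurred in the proximal LCP1 window 1 time on each strand, 191 and 46 bases before the start, and was absent from the letters of the PLS1 and PLS3 windows, with 19.5% of all windows holding it. GGGCGG, the core of a GC box, occurred 1 time in each window and in 42.6% of all windows. TGACTCA, an AP-1 motif, was in none of the 3 windows and in 4.2% of all. Both strands were searched, the motifs do not overlap one another, and they were chosen after the sequences had been read.

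The depth of the 14 libraries ran from 10216430 to 21553760 estimated counts, of which 93.4 to 94.8% belonged to transcripts matched to a gene symbol. Levels below are CPM, counts per 1000000 of the library size scaled by trimmed mean of M-values (TMM), unless TPM, transcripts per 1000000 after division by length, is named. The targeted genes served as a check of the labels. DICER1 stood at 252, 257 and 232 CPM in the mRNA-seq wt samples and at 80.6, 94.5 and 88.4 in shDicer, a log2 change of -1.49 ± 0.0804 (SE; edgeR adjusted p = 1.28e-07). On chromatin it was 119 and 124 in wt and 107 and 108 in shDicer, which did not pass the test (log2 change -0.18, edgeR adjusted p = 0.166). AGO2 fell from 239.8 and 254.9 CPM on chromatin in wt to 162 and 160 in shAgo2 (log2 change -0.62, edgeR adjusted p = 9.29e-05). DROSHA was 146 and 153 in wt and 166 and 148 in the libraries labelled shDrosha, so its chromatin RNA was not lower there (log2 change 0.07, edgeR adjusted p = 0.697). Any direction drawn from those libraries rests on the label and on the paper's own checks of the knockdown. The paper reports qRT-PCR of steady-state DROSHA RNA in the samples used for chromatin sequencing, and a western blot. Of 10 markers of HEK293 cells (neurofilaments, keratins, VIM and others), 9 or 10 were above 0 in every library. At least 1 CPM was reached by 7 in mRNA-seq wt, 6 in shDicer and 8 to 10 on chromatin. A level above 0 does not tell a cell type, since 18 to 20 of 21 leukocyte markers were also above 0 on chromatin. In shDicer mRNA-seq, 4 of the 7 tested HEK293 markers rose and 2 fell, against 15.6% called higher and 14.2% lower over all genes. NEFL rose from 16.6 ± 2.41 to 454 ± 261 CPM (SD, n = 3) and KRT18 from 29.3 ± 3.07 to 103 ± 3.94. NEFM fell from 6.27 ± 0.205 to 0.414 ± 0.159 CPM and INA from 21.6 ± 1.70 to 11.5 ± 0.632. NEFM passed the low-count filter only through wt, where it was high, so its fall is a description. On chromatin shDicer, 5 of 10 rose and 4 fell, against 11% and 10.5% over all genes. In shAgo2 2 rose and 4 fell, against 12.5% and 12.1%, and in shDrosha 3 fell, against 2.18%. No label says that the samples of a group were separate cultures, so p-values measure the spread between these samples, which may be technical.

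The 3 plastins differed widely in level in wt cells. Per length, in TPM, PLS3 was highest in the mRNA-seq wt samples at 233 ± 15.8 (SD, n = 3), followed by PLS1 at 12.1 ± 1.21, with LCP1 far below at 0.304 ± 0.0828. Chromatin wt gave the same order, with 121 ± 1.25 TPM for PLS3, 20.8 ± 0.680 for PLS1 and 0.621 ± 0.112 for LCP1 (n = 2). PLS3, or T-plastin, made up 94.3 to 95.8% of the summed plastin TPM in the mRNA-seq wt samples. In shDicer mRNA-seq the order became PLS3 at 110 ± 19.8 TPM, LCP1 at 24.5 ± 3.79 and PLS1 at 12.8 ± 3.03. LCP1 then made up 15.9 to 17.3% of the summed plastin TPM, against 0.0960 to 0.169% in wt. The summed plastin TPM went from between 233 and 262 in wt to between 118 and 170 in shDicer.

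**Figure D1:**
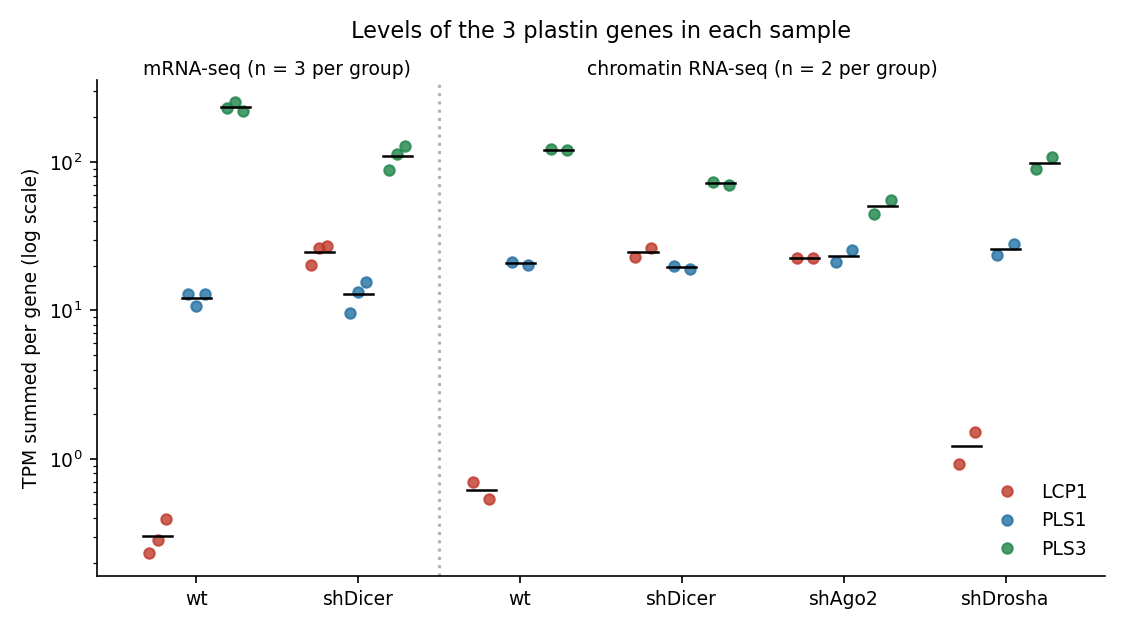
TPM of LCP1, PLS1 and PLS3 in each sample on a log axis, for mRNA-seq wt and shDicer (n = 3) and chromatin wt, shDicer, shAgo2 and shDrosha (n = 2); each point is a sample and each bar the group mean. LCP1 points lie below 2 TPM in wt and shDrosha and between 20.2 and 26.9 in shDicer and shAgo2, while the PLS3 points of every shRNA group lie below those of wt.

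On chromatin the order depended on the group. In shDicer it was PLS3 at 71.8 ± 2.33 TPM, LCP1 at 24.6 ± 2.36 and PLS1 at 19.6 ± 0.623. In shAgo2, PLS3 stood at 50.3 ± 7.79, and PLS1 at 23.2 ± 3.03 and LCP1 at 22.5 ± 0.148 did not differ beyond their spread. With CPM per kilobase of effective length in place of TPM, LCP1 stood above PLS1 in shAgo2, at 60.7 ± 3.38 against 27.3 ± 2.66. In the libraries labelled shDrosha the order was that of wt, with PLS3 at 98.6 ± 13.8 TPM, PLS1 at 25.8 ± 2.91 and LCP1 at 1.21 ± 0.416.

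LCP1 went from 23 or fewer estimated counts in wt to over 1000 in shDicer and shAgo2 cells. In mRNA-seq it was 0.730, 0.978 and 1.64 CPM in wt, from 9, 11 and 16 estimated counts, and 175, 201 and 176 CPM in shDicer, from 2234, 2653 and 2945. All 3 shDicer samples lay far above all 3 wt samples, and the fitted change was 7.39 ± 0.165 on the log2 scale, or 168-fold. On chromatin it was 1.36 and 1.45 CPM in wt (23 estimated counts in each sample), 81.9 and 109 in shDicer and 82.7 and 90.3 in shAgo2. The fitted changes from the shared wt samples were 6.07 ± 0.185 for shDicer and 5.94 ± 0.186 for shAgo2, or 67.4-fold and 61.2-fold. Of the genes fitted, 47 of 15090 had a larger change in mRNA-seq, and on chromatin 140 of 32874 in shDicer and 164 in shAgo2. These were the comparisons in which LCP1 was chosen. Over all genes, 15.6% of those tested were called higher and 14.2% lower in shDicer mRNA-seq at an adjusted p under 0.001. On chromatin, at 0.005, 11% were called higher and 10.5% lower in shDicer, and 12.5% higher and 12.1% lower in shAgo2.

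LCP1 did not pass the test in the libraries labelled shDrosha. Its levels there were 2.23 and 2.40 CPM, from 39 and 44 estimated counts, against 1.36 and 1.45 in wt. Both lay above both wt samples, at a log2 change of 0.71 ± 0.305 with an edgeR adjusted p = 0.226, where 1.19% of tested genes were called higher and 2.18% lower at 0.05. Counts of this size limit what could be detected. Between shDicer and shAgo2, LCP1 levels overlapped, with a fitted log2 difference of 0.14 ± 0.112 (shDicer minus shAgo2), given as a description since both groups chose LCP1, in a comparison where 2.71% of tested genes were called. Against shDrosha the fitted LCP1 differences were 5.36 ± 0.168 for shDicer and 5.22 ± 0.169 for shAgo2, again a description, where 20.5% and 21.9% of tested genes were called in either direction.

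**Figure D2:**
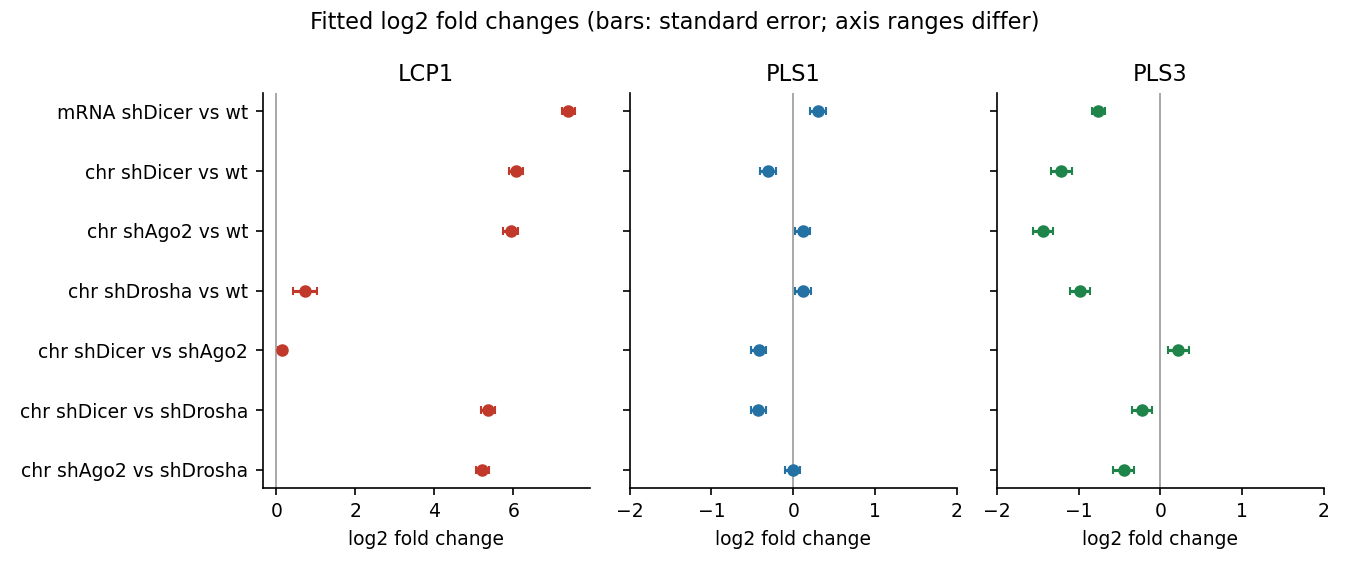
Fitted log2 fold changes of LCP1, PLS1 and PLS3 (points) with their standard errors (bars) in the mRNA-seq comparison and the 6 chromatin comparisons, the first-named group minus the second; the axis range of LCP1 differs from that of PLS1 and PLS3. LCP1 lies above 5 wherever shDicer or shAgo2 is set against wt or shDrosha and at 0.71 for shDrosha against wt, and PLS3 lies below 0 in all 4 comparisons with wt.

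The added LCP1 counts were assigned mainly to transcripts from the proximal start. On chromatin in wt, these held 0 and 3.51 estimated counts, and in the libraries labelled shDrosha 3.11 and 0. In shDicer they held 1113 and 1538, and in shAgo2 1257 and 1027. A count of 0 allows up to 3 counts, or 0.165 CPM of all counts in the wt library and 0.161 in the shDrosha library, by counting error alone. The distal start held 96.6 and 84.7% of LCP1 counts in chromatin wt and 92.0 and 100% in shDrosha. Its share was 17.1 and 15.2% in shDicer and 14.9 and 27.5% in shAgo2, while the proximal start took 71.5 and 75.0% in shDicer and 74.7 and 62.0% in shAgo2.

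Distal counts were also higher in these lines, at 13.5 and 15.3 CPM of all counts in shDicer and 11.6 and 23.1 in shAgo2, against 1.22 and 1.11 in wt. LCP1-202, the full-length distal transcript, held most of these counts in shDicer and shAgo2, with 13.3 and 14.2 estimated counts in wt, 248 and 292 in shDicer and 238 and 442 in shAgo2. The short distal transcript LCP1-204 held 8.91 and 5.31 in wt, 18.05 and 20.8 in shDicer, 12.3 and 13.2 in shAgo2 and 14.3 and 24.01 in shDrosha. The full-length proximal transcript LCP1-201 went from 0 and 2.39 counts in chromatin wt to 1073 and 1491 in shDicer and 1214 and 999 in shAgo2. In mRNA-seq wt the proximal start held 6.13, 8.58 and 13.5 of 9, 11 and 16 LCP1 counts, or 68.1, 78.0 and 84.2%. Most LCP1 counts were thus proximal in mRNA-seq wt already, unlike chromatin wt, where each sample had 23 LCP1 counts. In mRNA-seq shDicer the proximal start held 2151, 2398 and 2671 counts, or 96.3, 90.4 and 90.7% of LCP1. LCP1-203, from an inner start, took 34.2, 87.1 and 113 counts in the same shDicer samples. Reads that fit several transcripts were divided by an estimate, and the distal and proximal groups had 523 and 583 stretches of 31 bases of their own to tell them apart. No 31-base stretch of LCP1 occurred in another gene.

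**Figure D3:**
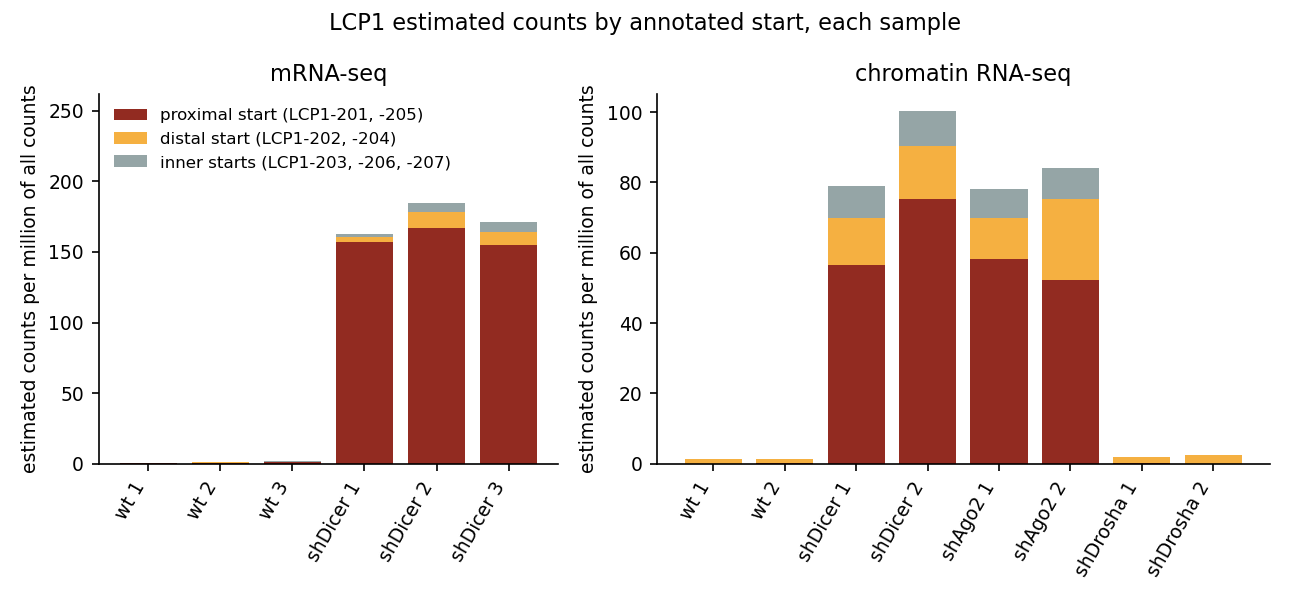
LCP1 estimated counts in CPM of all counts in each sample, stacked by annotated start: proximal (LCP1-201 and LCP1-205), distal (LCP1-202 and LCP1-204) and inner starts (LCP1-203, LCP1-206 and LCP1-207); the vertical scales of the panels differ. The proximal part is 52.2 CPM or more in all 4 chromatin shDicer and shAgo2 samples and 0.201 or less in chromatin wt and shDrosha.

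PLS3 fell in every comparison with wt. In mRNA-seq it was 1289, 1295 and 1273 CPM in wt and 672, 815 and 790 in shDicer, without overlap. The log2 change was -0.76 ± 0.0811 (edgeR adjusted p = 1.69e-05), or 0.591-fold. On chromatin it was 285 and 313 in wt, 113 and 145 in shDicer, 106 and 116 in shAgo2 and 167 and 136 in the libraries labelled shDrosha. All 6 samples of the shRNA groups lay below both wt samples. The changes were -1.21 ± 0.124 in shDicer (edgeR adjusted p = 1.39e-05), -1.43 ± 0.125 in shAgo2 (edgeR adjusted p = 3.20e-06) and -0.98 ± 0.124 in shDrosha (edgeR adjusted p = 0.00294). These 3 comparisons share the same 2 wt samples. Over all genes, 14.2% were called lower in mRNA-seq shDicer. On chromatin 10.5% were called lower in shDicer, 12.1% in shAgo2 and 2.18% in shDrosha. The share of all genes without overlap was not taken. In shDrosha, where the fewest genes were called, the fall did not hold with counts scaled from TPM by length, at -0.23 (edgeR adjusted p = 0.350).

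Between the shRNA groups no PLS3 difference passed the threshold. The log2 difference was 0.22 ± 0.125 for shDicer minus shAgo2 (edgeR adjusted p = 0.320) and -0.23 ± 0.124 for shDicer minus shDrosha (edgeR adjusted p = 0.184), and in both pairs the samples overlapped. For shAgo2 minus shDrosha it was -0.45 ± 0.125, with both shAgo2 samples lower, and an edgeR adjusted p = 0.0135 that missed the threshold of 0.005 but passed it under several alternatives.

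PLS3 transcripts begin at a first start (PLS3-201, PLS3-202, PLS3-206 and PLS3-209) or at a second one further in (PLS3-205 and PLS3-208). The first start held 155 and 182 CPM of all counts in chromatin wt, 71.3 and 88.4 in shDicer, 72.0 and 59.1 in shAgo2 and 105 and 91.7 in shDrosha. The second held 97.8 and 88.95 in wt, 30.4 and 37.8 in shDicer, 24.5 and 42.4 in shAgo2 and 37.2 and 28.8 in shDrosha. Both parts were lower in every sample of the shRNA groups than in either wt sample. PLS3-208 of the second start held most PLS3 counts in mRNA-seq, 10090, 10090 and 8065 in wt and 5007, 6418 and 8435 in shDicer. The groups overlapped in these unscaled counts, and the shDicer libraries were the deeper ones. On chromatin PLS3-208 ranged from 1000 and 893 estimated counts in wt to 151 and 0 in shDrosha, and from 63.3 to 523 between the shAgo2 samples. The second start had 80 stretches of 31 bases of its own, so its share is the less certain. The TPM sum of PLS3 on chromatin includes a 216-base transcript, PLS3-209, at 46.1 and 42.4 TPM in wt and 46.5 and 58.8 in shDrosha, while PLS3-202 went from 24.9 and 29.1 TPM to 14.1 and 12.2.

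**Figure D4:**
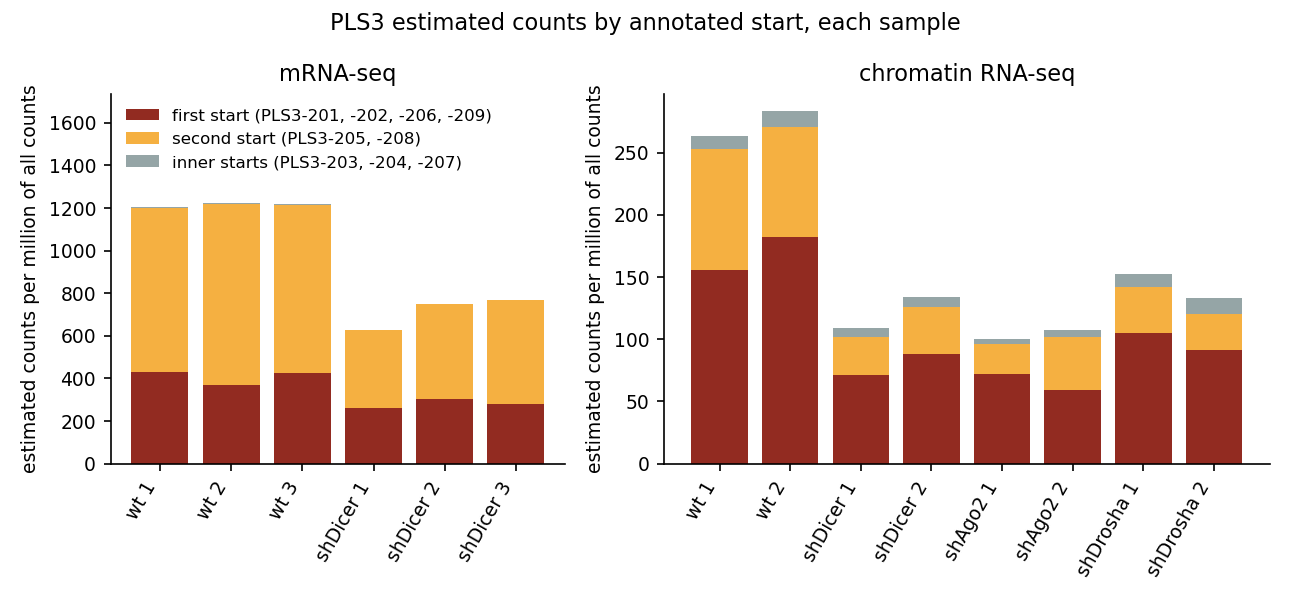
PLS3 estimated counts in CPM of all counts in each sample, stacked by annotated start: first (PLS3-201, PLS3-202, PLS3-206 and PLS3-209), second (PLS3-205 and PLS3-208) and inner starts (PLS3-203, PLS3-204 and PLS3-207); the vertical scales of the panels differ. In chromatin samples the first-start part is 155 and 182 CPM in wt and at most 105 in the shRNA groups.

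PLS3-AS1, a long non-coding RNA gene, overlaps the start of PLS3 on the other strand. Its chromatin levels were 39.2 and 38.4 CPM in wt, 31.03 and 29.1 in shDicer, 21.5 and 21.6 in shAgo2 and 47.6 and 45.4 in shDrosha. It fell in shDicer (log2 change -0.37 ± 0.0813, edgeR adjusted p = 0.00371) and in shAgo2 (-0.85 ± 0.0834, edgeR adjusted p = 8.13e-06). In shDrosha, where PLS3 fell, it was 0.26 ± 0.0794 with an edgeR adjusted p = 0.0965. In mRNA-seq PLS3-AS1 stayed between 0.300 and 0.711 CPM in all 6 samples and was not tested there. Per the methods of the study, reads were counted by strand, which separates the genes as far as the libraries keep strand.

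PLS1 passed the test in 1 of 7 comparisons. In mRNA-seq it was 58.3, 61.2 and 63.6 CPM in wt and 65.4, 78.0 and 82.4 in shDicer. The samples did not overlap, but the log2 change of 0.30 ± 0.0955 missed the threshold (edgeR adjusted p = 0.0183). On chromatin PLS1 was 27.3 and 27.8 in wt, 22.5 and 22.0 in shDicer, 27.6 and 32.0 in shAgo2 and 30.1 and 29.7 in shDrosha. The change was -0.31 ± 0.0955 in shDicer, the opposite sign of that in mRNA-seq, and also missed its threshold (edgeR adjusted p = 0.0241). It was 0.11 ± 0.0934 in shAgo2 (edgeR adjusted p = 0.357) and 0.12 ± 0.0939 in shDrosha (edgeR adjusted p = 0.546). Between the shRNA groups, PLS1 was lower in shDicer than in the libraries labelled shDrosha by a log2 difference of -0.42 ± 0.0944 (edgeR adjusted p = 0.00392), a call lost under DESeq2 (adjusted p = 0.0168) and on leaving out any 1 chromatin library. For shDicer minus shAgo2 it was -0.42 ± 0.0939 (edgeR adjusted p = 0.0153) and for shAgo2 minus shDrosha -0.0033 ± 0.0922 (edgeR adjusted p = 0.983).

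PLS1 RNA was divided among more transcripts on chromatin than in mRNA-seq. PLS1-202, the full-length transcript of the first start, held 596, 665 and 553 estimated counts in mRNA-seq wt and 744, 888 and 1187 in shDicer, most of the gene. On chromatin it held 102 and 93.7 in wt, 45.4 and 69.9 in shDicer, 106 and 101 in shAgo2 and 51.7 and 80.1 in shDrosha. PLS1-211, from a later start, held 91.4 and 98.5 in chromatin wt and 91.8 and 53.9 in shDicer. In mRNA-seq it was at 0 in rounded counts in wt and at 21.2, 40.7 and 61.6 in shDicer. Of the 31-base stretches of PLS1, 1.58% occurred in other genes, and 2.06% of those of PLS3, but none was shared between plastins.

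The chromosomal neighbours of the plastins were compared as a description, taking the 10 tested genes on each side. LCP1 lay above all 20 of its neighbours in mRNA-seq and on chromatin in shDicer and shAgo2. It was chosen for these rises and lay above 99.7, 99.6 and 99.5% of all tested genes there. Its place above the neighbours therefore says nothing about the locus. The median log2 changes of the neighbours were -0.78, -0.36 and -0.21. CPB2, a carboxypeptidase gene beside LCP1, was at -1.07 ± 0.219 in chromatin shDicer and -0.24 ± 0.197 in shAgo2. CPB2-AS1, which overlaps the far end of LCP1 on the other strand, was at -0.68 and -0.34, and LRRC63, which begins beyond the distal start on the other strand, at -0.10 and 0.27. RUBCNL, next in mRNA-seq, was at -2.19 ± 0.285 there. RN7SL288P, a 7SL pseudogene within LCP1 and on its strand, was at 0.45 ± 0.277 and 0.69 ± 0.270, and was not called.

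PLS3 lay below 18 of its 20 neighbours on chromatin in shDicer, 17 in shAgo2 and 19 in shDrosha, whose medians were 0.20, -0.06 and 0.08. Its nearest neighbours in mRNA-seq, HTR2C and KLHL13, were at -4.95 and -0.85, and LRCH2 and DANT2 at -0.45 and -0.67. PLS1 lay above 9 and below 11 of its neighbours in chromatin shDicer, where their median was -0.25. Of all tested genes, 26.3% lay below PLS1 in that comparison. XRN1 and ATR, beside PLS1, were at -0.09 and -0.22 in mRNA-seq.

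**Figure D5:**
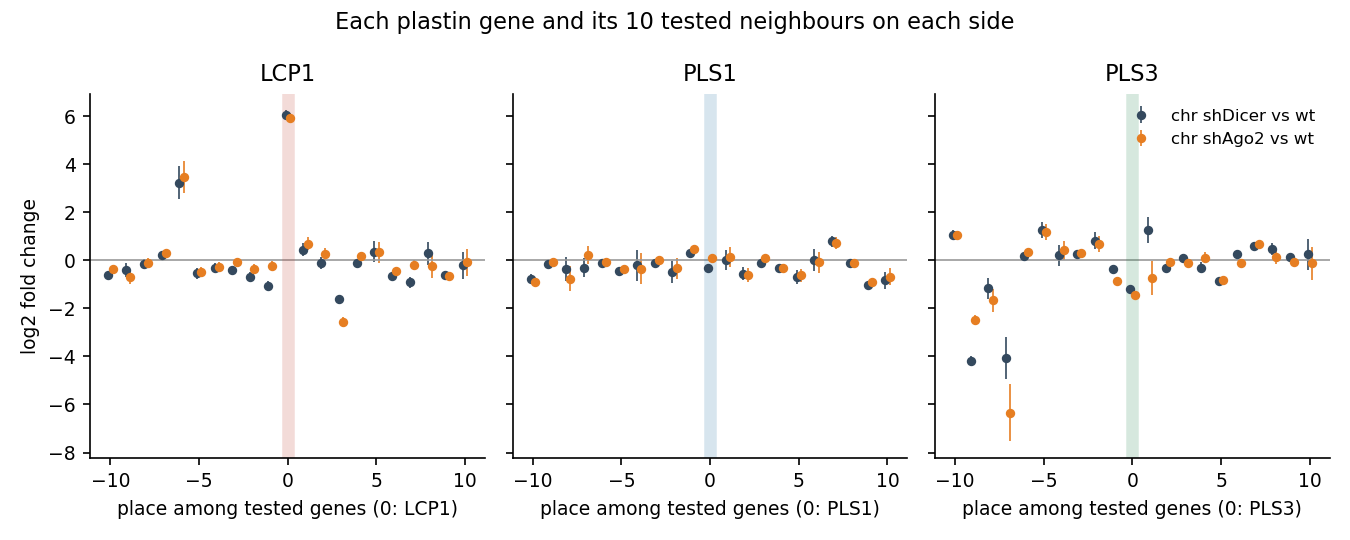
Log2 fold changes with standard errors of each plastin gene (place 0, shaded) and of the 10 tested genes on each side in chromosomal order, for chromatin shDicer against wt and shAgo2 against wt. LCP1 at 6.07 and 5.94 lies above all its neighbours, whose highest value is 3.48, and above 99.6 and 99.5% of all tested genes, having been chosen for these rises. PLS3 at -1.21 and -1.43 lies below most of its own neighbours, with only 2.86 and 2.41% of all tested genes below it.

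The genes whose chromatin profile lay nearest to LCP1, by Euclidean distance of centred log2 CPM over the 8 chromatin samples, were STAC, PCDHGB5, EPM2AIP1, MYOM2 and MDC1. Their distances ran from 0.626 to 1.28, and their log2 changes from 4.93 to 6.26 in shDicer and from 4.74 to 6.32 in shAgo2. In shDrosha they ran from -0.29 to 0.51. In mRNA-seq STAC was at 2.71 ± 0.154, PCDHGB5 at 8.08 ± 0.731, EPM2AIP1 at 8.28 ± 0.208, MYOM2 at 5.13 ± 0.387 and MDC1 at 2.02 ± 0.717. All but MDC1 were called higher, against 15.6% over all genes. The genes were picked by profiles that include the rise in chromatin shDicer, so their values in shDicer mRNA-seq are a description and no separate support. The nearest to PLS3 were TRIM28, MAGED1, EIF3I, HNRNPH2 and MAGED2, at distances of 0.232 to 0.451. MAGED1, HNRNPH2 and MAGED2 lie on chromosome X, as PLS3 does. The share of all compared genes on that chromosome was not taken, so nothing is read from this. In mRNA-seq the 5 genes nearest to PLS3 were at -0.44, -1.23, -0.62, -0.82 and -0.39 in the order named. MAGED1, EIF3I and HNRNPH2 were called lower, against 14.2% over all genes. These genes too were picked by profiles that include the fall in chromatin shDicer. Their values in shDicer mRNA-seq are therefore a description and no separate support. DEK, FARS2-AS1, UBAP1, KCTD7 and ASXL2 were nearest to PLS1, at 0.142 to 0.177. The profiles share libraries and wt samples, and 8 samples place them.

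Other proteins with paired calponin-homology domains moved in both directions. Of 23 such genes, 19 were tested in mRNA-seq, where 6 rose and 2 fell, against 15.6% called higher and 14.2% lower over all genes, with a median log2 change of 0.38 against 0.01. DMD, the dystrophin gene, rose from 22.2 ± 0.162 CPM to 68.7 ± 7.27 (SD, n = 3), and ACTN4, a non-muscle alpha-actinin, from 31.8 ± 3.73 to 65.6 ± 11.5. FLNC, the muscle filamin, fell from 9.02 ± 0.427 to 0.378 ± 0.162, and SYNE1, a nuclear envelope linker of actin, from 70.8 ± 5.37 to 17.8 ± 1.32. FLNC passed the low-count filter in mRNA-seq only through wt, where it was high, so its fall there is a description. On chromatin all 23 were tested. In shDicer 7 rose and 5 fell, and in shAgo2 9 rose and 7 fell, against the 11% and 10.5%, and 12.5% and 12.1%, called over all genes. DMD rose in both, by 1.56 and 1.27 on the log2 scale, and FLNC fell in both, at -4.62 and -2.09. SPTB, the erythroid beta-spectrin, rose in shDicer at 1.19 ± 0.135, and DST, a cross-linker of actin and other filaments, in shAgo2 at 1.13. ACTN3, the fast-muscle alpha-actinin, was at -1.83 ± 0.397 in shDicer, and PARVG, a parvin of blood cells, at -4.00 ± 0.558 in shAgo2. Both were under 2 CPM in wt, with ACTN3 at a mean of 0.475 in shDicer and PARVG at 0.0765 in shAgo2. They passed the low-count filter through wt and shDrosha, where they were high. These 2 falls are therefore a description, though included in the counts above. In shDrosha 1 rose and 4 fell, against 1.19% and 2.18% over all genes. DMD rose by 0.37 (edgeR adjusted p = 0.0494), and FLNA, the widespread filamin, and PLEC, the plectin gene, fell, at -1.08 ± 0.139 and -0.87 ± 0.173.

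Among 19 bundlers of other families, 12 were tested in mRNA-seq, and 4 rose and 3 fell, against the same 15.6% and 14.2% over all genes, with a median of 0.35. EPS8, which bundles and caps actin filaments, rose from 31.01 ± 2.93 to 68.3 ± 3.72 CPM, and LIMA1, which cross-links them, from 68.4 ± 1.28 to 135 ± 7.90. ESPNL, a relative of espin, fell from 4.81 ± 1.59 to 0.0712 ± 0.0101, and VILL, a relative of villin, from 1.37 ± 0.497 to 0.122 ± 0.0917. Both passed the low-count filter only through wt, where they were high, so these 2 falls are a description. On chromatin 4 rose and 4 fell of 19 in each of shDicer and shAgo2, where 11% and 10.5%, and 12.5% and 12.1%, of all genes were called higher and lower. EPS8 rose in both, by 0.79 and 0.70, LIMA1 in shDicer by 0.92 and SYNPO, the podocyte and synapse protein synaptopodin, in shAgo2 by 0.82. VILL fell at -3.69 and -4.68 and ESPNL at -3.01 and -2.62. In shDrosha, where 2.18% of all genes were called lower, 3 fell, MARCKS and MARCKSL1 at -0.77 ± 0.133 and -0.45 ± 0.0801 among them. Of the actin isoforms, 3 of 6 were tested in mRNA-seq, where 15.6% of all genes were called higher. ACTA2, the smooth muscle actin, rose from 2.46 ± 0.135 to 10.6 ± 2.17 CPM. On chromatin 5 were tested against wt, and the 1 call was ACTG1, which fell in shDrosha at -0.53 (edgeR adjusted p = 0.0435). Over all genes 2.18% were called lower there. ACTG1 is a cytoplasmic actin with many near-identical pseudogenes that can share its reads.

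LCP1 is a leukocyte gene, so 21 leukocyte markers were set beside it. In mRNA-seq their summed level was 5.66 to 6.57 CPM in wt and 21.4 to 25.2 in shDicer, and 11 or 12 of 21 were above 0 in each sample. Only 4 passed the low-count filter and were tested, and 3 of these rose, against 15.6% over all genes. LAPTM5, a lysosomal protein of blood cells, went from 0.0567 ± 0.0492 to 2.92 ± 0.411 CPM (SD, n = 3) and CYBB, a subunit of the phagocyte oxidase, from 0.321 ± 0.423 to 3.66 ± 1.27, and VAV1, a signalling protein named after its values were seen, from 3.17 ± 0.565 to 14.1 ± 2.56. LAPTM5 and CYBB passed the filter only through shDicer, where they were high, so their rises are a description. The summed level was higher in the same samples as LCP1, with VAV1 the largest part of the difference, and its part in the LCP1 level was not tested. PTPRC (CD45), the defining surface protein of leukocytes, was 0.209, 0.180 and 0.414 CPM in wt and 0.0392, 0.0757 and 0.119 in shDicer. SPI1, the myeloid and B-cell transcription factor, and CD48, LCP2 and TYROBP were at 0 in all 6. PTPRC was between 1.23 and 2.17 CPM in the 8 chromatin samples. On chromatin the summed level was 75.4 to 79.1 in wt, 75.9 to 80.8 in shDicer, 63.3 to 70.0 in shAgo2 and 72.3 to 79.2 in shDrosha. Of 16 markers tested there, 2 rose (CYBB and IKZF1) and 1 fell (CORO1A) in shDicer, against 11% and 10.5% over all genes, and in shAgo2 the 1 call was again CORO1A, which fell. In bulk RNA, fewer cells of a type and less RNA per cell cannot be told apart.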

How the data were processed

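RNA-seq of 14 samples of HEK293-derived lines was used, and 6 small RNA samples were not analysed here. The authors counted reads by strand with kallisto 0.43.1 against Ensembl transcripts and deposited estimated counts per transcript. The deposited TPM values are those counts divided by effective length and scaled by kallisto to a fixed sum. Ribosomal depletion is described in the methods, while the mRNA-seq labels name polyA RNA. Transcripts were matched by identifier to GENCODE (193697 of 217082), and their estimated counts were summed per gene and rounded. Genes passing filterByExpr (15090 in mRNA-seq, 32874 on chromatin) were tested with the quasi-likelihood test of edgeR 4.0.16 in R 4.3.3, with TMM scaling and Benjamini-Hochberg adjustment over all tested genes. One fit held the 6 mRNA-seq samples and another the 8 chromatin samples. Calls used adjusted p thresholds of 0.001 for mRNA-seq, 0.05 for shDrosha against wt and 0.005 for the other chromatin comparisons. On simulated counts, 200 genes above a count floor were given a log2 change of 2 in either direction at a fixed spread. The test recovered 199 in the mRNA-seq design and 195 in the chromatin design. Smaller changes and genes of low count were not simulated.

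The members and gene lists were chosen with earlier results of these data known. Named were the plastins, the targeted genes, PLS3-AS1 and transcripts with at least 5 percent of a gene's counts. The 5 nearest chromatin profiles (mean log2 CPM of at least 1) and the nearest 2 tested genes on each side were also named. From each list came the 2 called genes at either end of the ranking by change from wt. For the HEK293 markers this was done in mRNA-seq only. Alternatives were library size scaling, no low-count filter, DESeq2 1.42.0, counts scaled from TPM by length, a replicate block, other thresholds, fits of only the compared groups and leaving out each library.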

Additional observations from a re-analysis of the deposited data

Results flagged for a closer look

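PLS3-AS1, the non-coding gene on the strand opposite PLS3, differed between the changes from wt of chromatin shDicer and shAgo2. Its log2 difference was 0.48 ± 0.0838 (shDicer minus shAgo2, edgeR's quasi-likelihood test, adjusted p = 0.00416), with 31.03 and 29.1 CPM in shDicer against 21.5 and 21.6 in shAgo2, so both shDicer samples lay higher.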

How the results depend on the processing

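Of 251 values behind the comparisons under alternatives that left all libraries in, 219 kept direction and side of the threshold (counts within 1.5 times), 22 moved, 5 gained and 5 lost a call. Without the low-count filter, 3747 genes were higher in mRNA-seq shDicer, 1120 lower in shDrosha and 1414 differed between shDicer and shAgo2. With counts scaled from TPM by length, LCP1 was 6.64 in mRNA-seq, 5.35 and 5.19 in chromatin shDicer and shAgo2 against wt, and 4.31 and 4.145 against shDrosha. In that scaling 143 genes were higher and 178 lower in shDrosha, 383 differed between shDicer and shAgo2, and PLS3 in shDrosha was -0.23, no longer called. PLS1 in shDicer against shDrosha lost its call there (-0.44), with DESeq2 (-0.43), with the replicate block (-0.42) and in a fit of only these groups (-0.415). PLS3 in shAgo2 against shDrosha gained a call with library size scaling (-0.46), no filter (-0.45), DESeq2 (-0.45), length scaling (-1.04) and the crossed block (-0.44). Genes higher in shDrosha numbered 768 with library size scaling and 254 with DESeq2. At a threshold of 0.005, 26 were higher and 58 lower there. The fit of only the compared groups called 4194 genes between shDicer and shDrosha. By counts per kilobase LCP1 took place 2 and PLS1 place 3 in shAgo2. The cause of these shifts was not tested.

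Same-numbered samples correlated at 0.0455 to 0.0812 in mRNA-seq and -0.131 to 0.0279 on chromatin, so the numbers were not taken as pairs. With the replicate block, 137 genes were higher and 315 lower in shDrosha and 413 differed between shDicer and shAgo2. A block with the shDrosha numbers crossed, chosen after seeing the data, gave 1149, 1962 and 1931.

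Leaving out 1 library gave 1436 to 2476 genes higher and 1289 to 2216 lower in mRNA-seq. PLS1 there ranged from 0.24 to 0.40, and was called without shDicer replicate 1. On chromatin, 2017 to 3836 were higher and 1826 to 3749 lower in shDicer, 2341 to 4298 and 2004 to 4354 in shAgo2, and 26 to 574 and 46 to 1163 in shDrosha. Between shDicer and shAgo2, 107 to 1109 differed, and LCP1 ranged from -0.078 (without shDicer replicate 2) to 0.33. PLS1 in shDicer against shDrosha ranged from -0.43 to -0.41, its call lost each time. In shAgo2 against shDrosha, 3688 to 7659 genes differed, PLS3 ranged from -0.59 to -0.30, and PLS1 from -0.11 to 0.10, with its sign turned at 0.00065, 0.0027 and 0.10. A lone remaining chromatin sample was assumed to vary like the other groups.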
